A study of Mus musculus with 2 samples.

Results

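Mir125a and Mir455 are 2 miRNA genes that have been studied as repressors of Scarb1, the gene of the HDL receptor SR-BI, in steroid-producing cells. They were taken by gene symbol from the deposited count tables, through the GENCODE M21 annotation, and make up 2 of 2202 miRNA genes counted. The samples were adrenal gland tissue of female B6CASTF1/J mice, which are offspring of a cross between C57BL/6J and CAST/EiJ, at 4 days of age. The study held 1 group with 2 libraries and no treatment, genotype or time contrast. Both samples bear 1 donor identifier while their descriptions number the females separately, so the spread between replicates 1 and 2 may or may not be that between animals. The labels do not say whether whole glands were taken. In bulk tissue fewer cells of a type and less RNA per cell cannot be told apart.

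A miRNA is cut from a hairpin precursor as a short strand that guides the silencing complex to mRNAs, chiefly by pairing of its bases 2 to 8, the seed, with sites in 3′ UTRs. The adrenal cortex makes steroids from cholesterol, and in rodents takes much of it from HDL through SR-BI, so that repressors of Scarb1 bear on cholesterol supply. No mRNA or protein was measured here, so repression of Scarb1 itself was not tested.

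The mature strands of both genes are shown because the counts are per hairpin and do not tell the arms apart. Capitals mark the seed. Sequences are those of RefSeq (GRCm38.p6, the same primary assembly as mm10), read 5′ to 3′.

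miR-125a-5p: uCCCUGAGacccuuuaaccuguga

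miR-125a-3p: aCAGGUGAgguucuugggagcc

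miR-455-5p: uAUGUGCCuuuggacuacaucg

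miR-455-3p: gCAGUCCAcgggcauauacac

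Relatives with the seed of miR-125a-5p are shown next, since their counts are set beside those of Mir125a.

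miR-125b-5p: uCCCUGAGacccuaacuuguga

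miR-351-5p: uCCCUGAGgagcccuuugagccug

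The first 13 bases of miR-125a-5p and miR-125b-5p are the same, whereas miR-351-5p shares the first 8. The miR-125b-5p strand exists in 2 copies, from Mir125b-1 and Mir125b-2. In the RefSeq table the seed CCCUGAG belonged to 5 of 1674 distinct mature strands, from 6 genes. The seeds of miR-125a-3p and miR-455-3p had no other holder. That of miR-455-5p was shared with miR-5129-3p, whose gene Mir5129 had 4 reads in replicate 1 and 2 in replicate 2. Mir6367 and Mir6394, the remaining holders of the miR-125 seed, had 0 reads in both libraries, which allows each a share of at most 6.05e-05% and 6.66e-05% of the miRNA reads (3 counts of the total).

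Mir125a lies on chr17:17830812-17830879 (mm10, plus strand, ENSMUSG00000065479.2). Its hairpin of 68 bases is printed with the 5p and 3p arms in capitals, to show where on the precursor the counted reads can fall: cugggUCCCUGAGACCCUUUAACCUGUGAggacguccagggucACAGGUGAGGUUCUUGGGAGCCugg. The locus sits in an intron of the protein-coding transcript of Spaca6, a sperm membrane gene, and 47 of its bases overlap exon 1 of a non-coding Spaca6 transcript on the same strand. Mir455 lies on chr4:63256851-63256932 (mm10, plus strand, ENSMUSG00000070102.1), within an intron of Col27a1, which encodes a fibrillar collagen of cartilage. In the main Col27a1 transcript 10 exons of 61 precede it. Neither hairpin shares a run of 18 bases with another annotated miRNA hairpin, so neither count is split with a near-identical copy. No miRNA gene is annotated on the opposite strand of either, and reads on that strand numbered 0 for both genes in both libraries.

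Among uniquely placed reads, Mir125a was one of the abundant miRNAs of the gland and Mir455 a moderate one. Of all reads, 25.9% in replicate 1 and 27.8% in replicate 2 mapped to several places and were not counted. The levels, ranks and shares below are therefore standings among uniquely placed reads, where miRNAs with several copies can be undercounted. Mir125a had 56727 reads in replicate 1 and 23091 in replicate 2. Scaled to a common total of miRNA reads (CPM) these are 11436 and 5124 CPM, with a mean of 8279.8 CPM ± 4463 (SD, n = 2). The gene held rank 23 in replicate 1 and rank 38 in replicate 2. In shares, it took 1.14% of the miRNA reads (95% Wilson interval 1.13 to 1.15) and 0.512% (0.506 to 0.519). Replicate 1 was thus the high library, and the intervals, which cover counting error alone, lie far apart.

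Mir455 had 4963 reads in replicate 1 and 5018 in replicate 2. These are 1000.5 and 1113.5 CPM, with a mean of 1057 CPM ± 79.9 (SD, n = 2). It held rank 93 and rank 79. The shares were 0.100% (95% Wilson interval 0.0973 to 0.103) and 0.111% (0.108 to 0.114). Replicate 2 was slightly the higher, and the SD was 7.56% of the mean, against 53.9% for Mir125a. Within a library, Mir125a had 11.4 reads per read of Mir455 in replicate 1 and 4.60 in replicate 2. Cloning efficiency differs between small RNA sequences, so this is a ratio of reads and not of molecules.

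**Figure D1:**
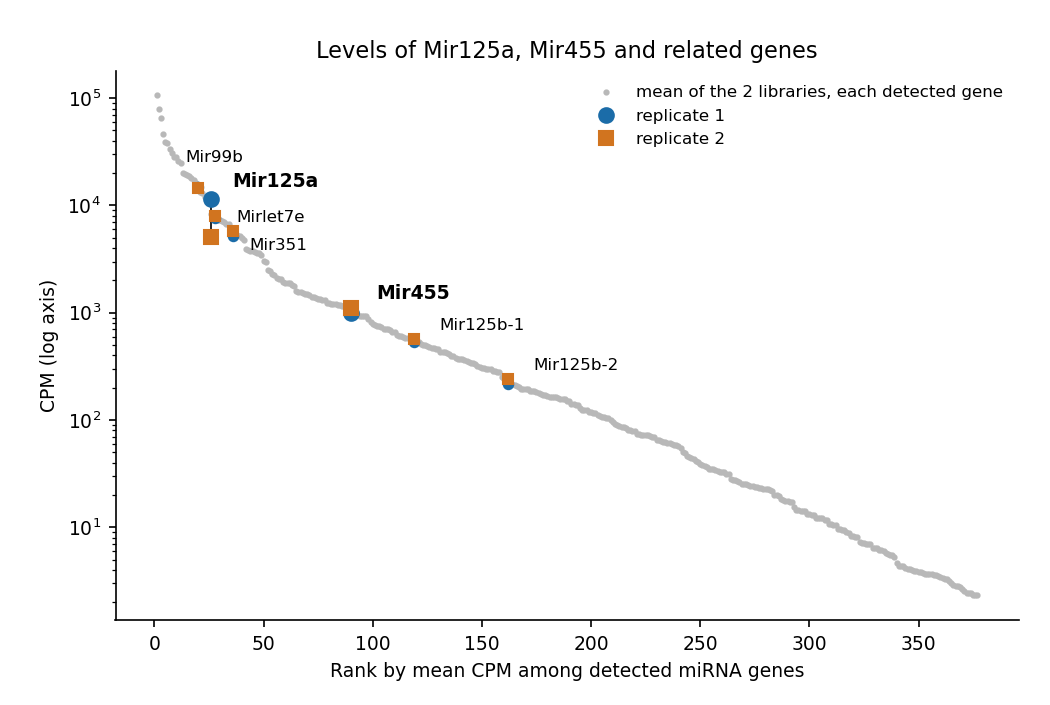
CPM on a log axis against rank by mean CPM for the 377 miRNA genes with at least 10 reads in both libraries (grey, mean of the 2 libraries), with replicate 1 as circles and replicate 2 as squares for Mir125a, Mir455, Mir99b, Mirlet7e, Mir351, Mir125b-1 and Mir125b-2. Mir125a is drawn apart at 11436 and 5124 CPM, whereas the symbols of Mir455 (1000.5 and 1113.5 CPM) and of the other 5 genes drawn nearly coincide.

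Mir125a was 2.04-fold higher in replicate 1. The log2 ratio of replicate 2 over replicate 1 was -1.03 (95% exact interval -1.05 to -1.01) by TMM-scaled reads, a scaling that sets the bulk of the genes level between libraries. It was -1.16 when scaled by total miRNA reads as CPM is. Its adjusted p in an exact two-sided binomial test over 377 genes was smaller than the computation can hold. That test compares 2 libraries, takes counting error as the only error, and has no replicate check. It called 68.2% of all genes tested, and 18.3% were called with at least 2-fold, so a call as such is common here. A larger ratio in either direction was held by 68 of the 377 genes. Among the 50 most abundant genes 5 reached 2-fold, namely Mir22, Mir126a, Mir206, Mir487b and Mir125a (the first 4 chosen after their values were seen). Against the general spread of this pair of libraries, which edgeR's exact test takes as its error, Mir125a did not pass (unadjusted p = 0.261, adjusted p = 1).

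Mir455 differed little between the libraries. Its log2 ratio was 0.29 by TMM-scaled reads (95% exact interval 0.23 to 0.34), which is 1.22-fold higher in replicate 2, and 0.15 by total reads. The exact binomial test called it (adjusted p = 1.63e-22, and at most 2.06e-07 under the other scalings and filters), and edgeR's exact test did not (unadjusted p = 0.753, adjusted p = 1). Its ratio was exceeded in size by 244 of the 377 genes, whose median absolute log2 ratio was 0.45. In this pair of libraries Mir455 thus lay among the genes that differed less, and Mir125a among those that differed more.

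**Figure D2:**
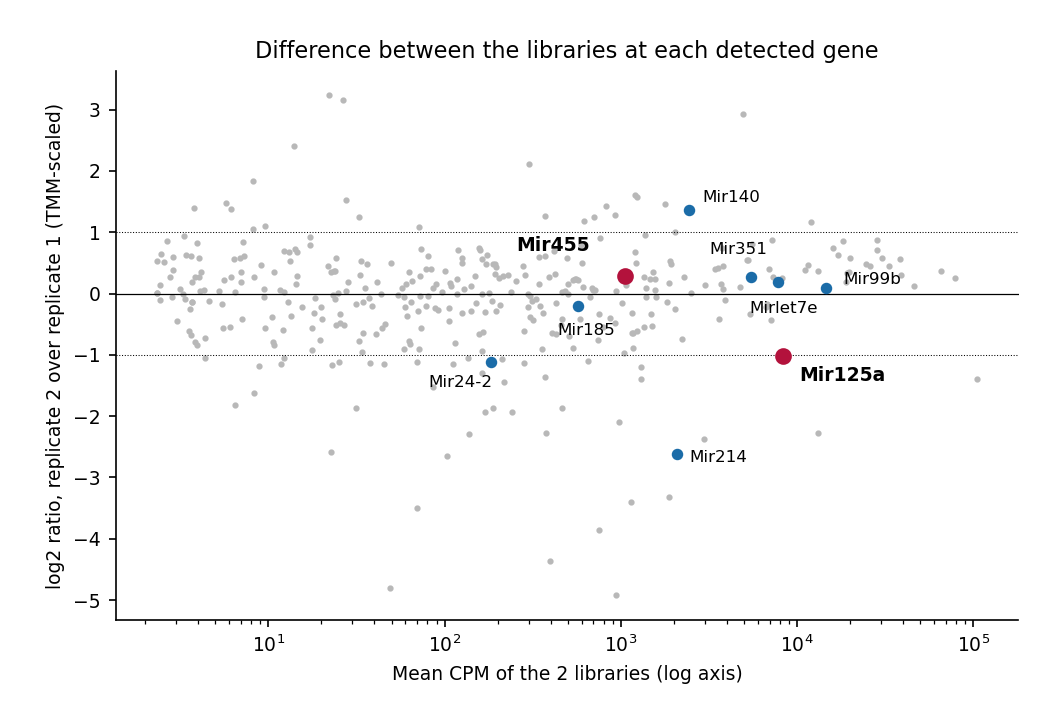
Log2 ratio of replicate 2 over replicate 1 (TMM-scaled reads) against mean CPM (log axis) for the 377 detected genes in grey, with dotted lines at 2-fold. Mir125a lies at -1.03 and Mir455 at 0.29, while Mir99b and Mirlet7e, next to Mir125a in the genome, lie near 0.

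Mir125a is the last of 3 hairpins in a compact cluster, and it alone among them was far from level. Mir99b (chr17:17830188-17830257) starts the cluster, Mirlet7e (chr17:17830352-17830444) begins 164 bases on, and Mir125a 624 bases on. All are on the plus strand, and none shares a hairpin run. The miR-99 family is known for targeting mTOR signalling and let-7 for promoting differentiation. Mir99b had 73779 and 65273 reads (14873 and 14484 CPM), and Mirlet7e 38013 and 35873 reads (7663 and 7960.3 CPM). Both were thus at nearly the same CPM in the 2 libraries, where Mir125a was not. Of the cluster's 168519 reads in replicate 1 Mir125a made up 33.7% (95% Wilson interval 33.4 to 33.9), and of 124237 in replicate 2 18.6% (18.4 to 18.8).

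Ratios within a library do not depend on scaling. Per read of Mir99b there were 0.769 reads of Mir125a in replicate 1 and 0.354 in replicate 2, a difference of -1.12 on the log2 scale (replicate 2 minus replicate 1, 95% interval from counting error -1.15 to -1.09). Per read of Mirlet7e the values were 1.49 and 0.644, a difference of -1.21 (-1.24 to -1.18). For Mirlet7e per Mir99b they were 0.515 and 0.550, a difference of 0.09 (0.07 to 0.12). The 3 hairpins were unequal in their difference, mainly through Mir125a. By TMM-scaled reads 1 of the 3 was called higher in replicate 1 and 2 in replicate 2, against 32.6% and 35.5% of all genes tested. Mir99b, at 0.09, turned to -0.04 and was called higher in replicate 1 when scaled by total reads.

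**Figure D3:**
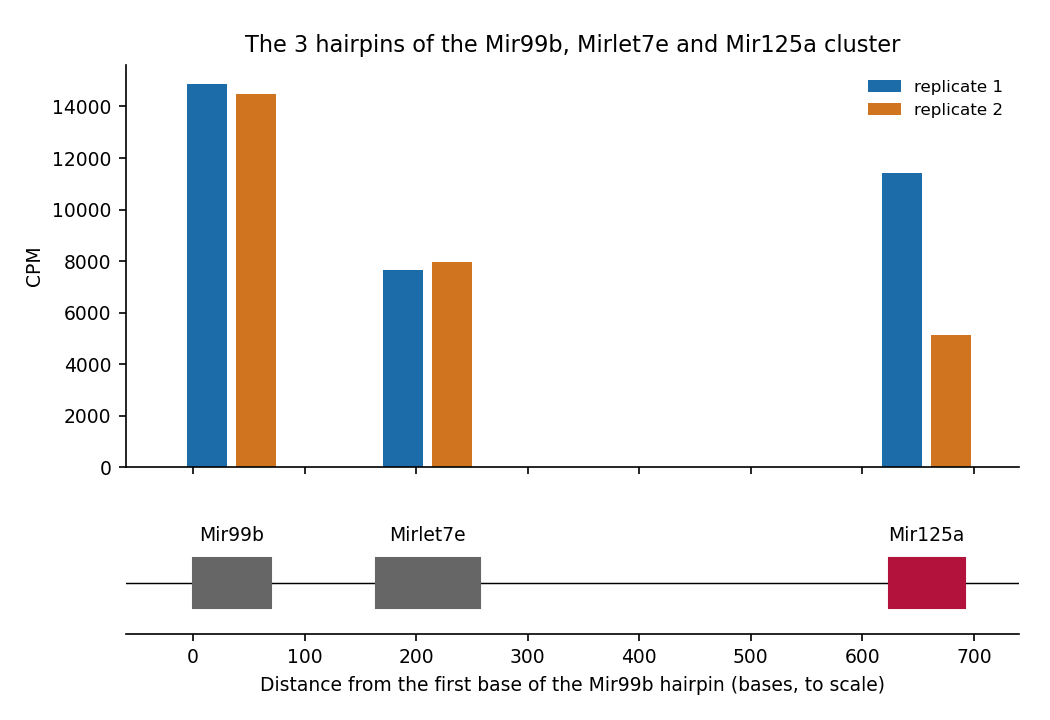
CPM of Mir99b, Mirlet7e and Mir125a in replicate 1 (blue) and replicate 2 (orange), drawn above their hairpins at scale in bases from the first base of Mir99b. The bars of Mir99b (14873 and 14484 CPM) and Mirlet7e (7663 and 7960.3 CPM) are nearly level, whereas those of Mir125a stand at 11436 and 5124 CPM. Bars are placed side by side at each hairpin and their width has no meaning.

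The paralogous clusters hold the other genes of the miR-125 family. On chromosome 16 Mir99a had 18236 and 21347 CPM and Mir125b-2 had 217 and 244 CPM. On chromosome 9 Mir100 had 3102 and 3758 CPM and Mir125b-1 had 531 and 573 CPM. Their let-7 genes were low in uniquely placed reads, Mirlet7c-1 at 247 and 229 CPM and Mirlet7a-2 at 113 and 122 CPM. Of the 6 genes 5 were called for replicate 2 and none for replicate 1, against 35.5% and 32.6% of all genes tested, with log2 ratios of 0.02 to 0.41 by TMM-scaled reads. Mirlet7a-2 lost its call by total reads (0.11), and Mirlet7c-1, with no call, turned to -0.11 there. The hairpins of both Mir125b genes and both let-7 genes share runs with others, so reads that map to several places are missing from their counts.

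Within the miR-125 seed family Mir125a led in replicate 1 and Mir351 in replicate 2. Mir351, which lies on the X chromosome near Mir322 and Mir503, had 25973 and 25965 reads (5236 and 5762 CPM). Mir125a made up 65.6% (95% Wilson interval 65.3 to 66.0) of the family's 86412 reads in replicate 1 and 43.8% (43.4 to 44.2) of 52734 in replicate 2, where Mir351 made up 30.1% and 49.2%. Mir125b-1 and Mir125b-2 had 3.05% and 1.25% of the family's reads in replicate 1 and 4.89% and 2.08% in replicate 2, but the mature strand they share is present in 2 copies and its reads could not be assigned uniquely. The order of the family therefore holds for uniquely placed reads alone. Of the 4 genes Mir125a was called higher in replicate 1 and the other 3 in replicate 2, where 32.6% and 35.5% of all genes tested were called, with a median log2 ratio of 0.25 against 0.04 over all genes.

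Mir455 was compared with Mir140, the miRNA best known from cartilage, since both are prominent in chondrocytes. Mir140 had 7264 and 15500 reads (1464 and 3439 CPM), a log2 ratio of 1.36 (95% exact interval 1.32 to 1.40). Per read of Mir140 there were 0.683 reads of Mir455 in replicate 1 and 0.324 in replicate 2, a log2 difference of -1.08 (-1.15 to -1.01). Replicate 2 was thus high in Mir140 and nearly level in Mir455, though both genes were called higher there. Levels of Col27a1 itself, the host of Mir455, were not measured.

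By level in both libraries, the genes nearest to Mir455 were Mir181d (1074 and 1079 CPM), Mir328 (967 and 907 CPM) and Mir532 (1064 and 1371 CPM), at distances of 0.11, 0.30 and 0.31 in log2(CPM + 1). Those nearest to Mir125a were Mir30d (8538 and 5778 CPM), Mir130a (7539 and 5892 CPM) and Mirlet7e, at distances of 0.46, 0.63 and 0.86. With 2 libraries such likeness covers level alone.

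Sites that pair with the seeds were looked for in the 3′ UTR of Scarb1 (chr5:125277087-125341094, minus strand). The longest annotated one, of transcript Scarb1-201, has 779 bases. Searched on the mRNA strand were CTCAGGG for miR-125a-5p, TCACCTG for miR-125a-3p, GGCACAT for miR-455-5p and TGGACTG for miR-455-3p, each also as its last 6 bases followed by A, so that these forms overlap. Capitals in the sites below mark the matching bases, to be read against the seeds above.

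Scarb1 site for miR-455-5p, chr5:125277708-125277729: cctgtccgcacgcacGGCACAT

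Scarb1 first site for miR-125a-5p, chr5:125277674-125277695: atgtgcaaaaacaaCTCAGGGA

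Scarb1 second site for miR-125a-5p, chr5:125277293-125277314: agaggtggcaggcccCTCAGGG

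The match to miR-455-5p began at base 152 after the stop codon and those to miR-125a-5p at bases 185 and 567. The first of the miR-125a-5p matches was of the 8-base kind, which includes an A opposite base 1 of the miRNA. Neither 3p arm had a match. The shorter annotated 3′ UTR of Scarb1-202, with 657 bases, held as many matches to each strand. That of Scarb1-205, with 292 bases, held 1 for miR-455-5p and only 1 for miR-125a-5p. Within the first 779 bases of 3′ UTR, a match to miR-125a-5p was held by 13.3% of 11841 genes with a 3′ UTR at least that long, a match to miR-455-5p by 7.06%, and both by 1.07%. Since the miR-125 seed is shared, the matches to miR-125a-5p are equally matches to miR-125b-5p and miR-351-5p. A match is a property of the sequence and does not show binding.

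**Figure D4:**
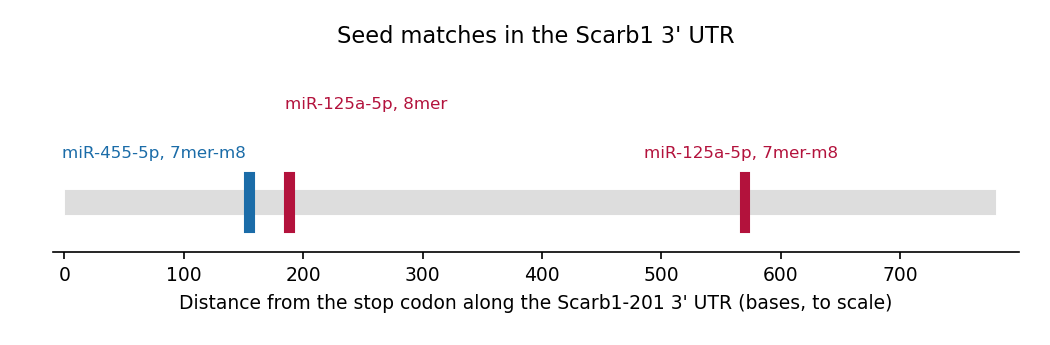
Seed matches along the 779 bases of the Scarb1-201 3′ UTR, by distance from the stop codon in bases and to scale. The miR-455-5p match at 152 and the first miR-125a-5p match at 185 are close together, and the second miR-125a-5p match lies at 567.

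Further genes of cholesterol supply and steroid synthesis were searched in the same way. Soat1, which esterifies cholesterol, had 2 matches for miR-125a-5p, 2 for miR-455-3p and 2 for miR-125a-3p in a 3′ UTR of 6534 bases. Star, the mitochondrial cholesterol carrier, had 1 for miR-125a-5p and 1 for miR-455-3p in 3096 bases. Nr5a1, which encodes the steroidogenic factor SF-1, had 1 for miR-455-3p, and Npc1, a lysosomal cholesterol exporter, had 1 for miR-125a-3p. The steroid enzymes Cyp11a1, Cyp21a1 and Cyp11b1, together with Lipe, Mc2r, Abca1 and Apoe, had no match to any of the 4 strands. These 3′ UTRs differ in length from 171 bases for Cyp11a1 to 6534. Within the first 779 bases, 12.3% of the 11841 genes held a match to miR-125a-3p and 11.5% to miR-455-3p, beside 13.3% for miR-125a-5p. Such shares were not computed for longer 3′ UTRs, where matches are more frequent. The counts for Soat1, Star, Nr5a1 and Npc1 thus have no background and do not mark these genes as unusual.

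Other miRNAs that have been studied as regulators of Scarb1 were all below Mir455 in uniquely placed reads. Mir185 had 642 and 508 CPM, Mir223, a myeloid miRNA, had 418 and 569 CPM, and Mir96 had 63 and 17 reads. Mir24-1 had 57.5 and 51.5 CPM and Mir24-2 257 and 109 CPM. Those 2 genes share a mature strand, so these values miss reads that map to both. By the exact binomial test, 3 of these 5 genes were higher in replicate 1 (Mir185, Mir96, Mir24-2), 1 in replicate 2 (Mir223) and 1 had no call. Over all genes tested 68.2% were called, 32.6% for replicate 1 and 35.5% for replicate 2, so the count of 4 calls is near the background. Their median log2 ratio was -0.21.

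Among 12 other miRNAs studied in steroidogenic cells, Mir143, Mir21a and Mir378a were above Mir125a in both libraries. Mir143, a smooth muscle miRNA, had 25848 and 35132 CPM. Mir21a had 18470.2 and 19306 CPM, and Mir378a, whose hairpin shares runs with others, 12728 and 19456 CPM. Mir132 and Mir212, known as targets of cAMP signalling, had 612 and 603 CPM and 37.9 and 31.3 CPM. By the exact binomial test 3 of the 12 were higher in replicate 1, as Mir125a was. These were Mir214 (3641 and 542 CPM) and the clustered pair Mir182 (324 and 109 CPM) and Mir183 (219 and 105 CPM). Another 6 were higher in replicate 2, with the call of Mir132 lost and its direction turned by total reads (0.11 to -0.02), and 3 had no call. These 9 calls of 12 are near the 68.2% over all genes tested (32.6% for replicate 1 and 35.5% for replicate 2). The median log2 ratio was 0.07 by TMM-scaled reads and -0.07 by total reads, so its direction turned with the scaling, as did that of all genes (0.04 and -0.09).

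**Figure D5:**
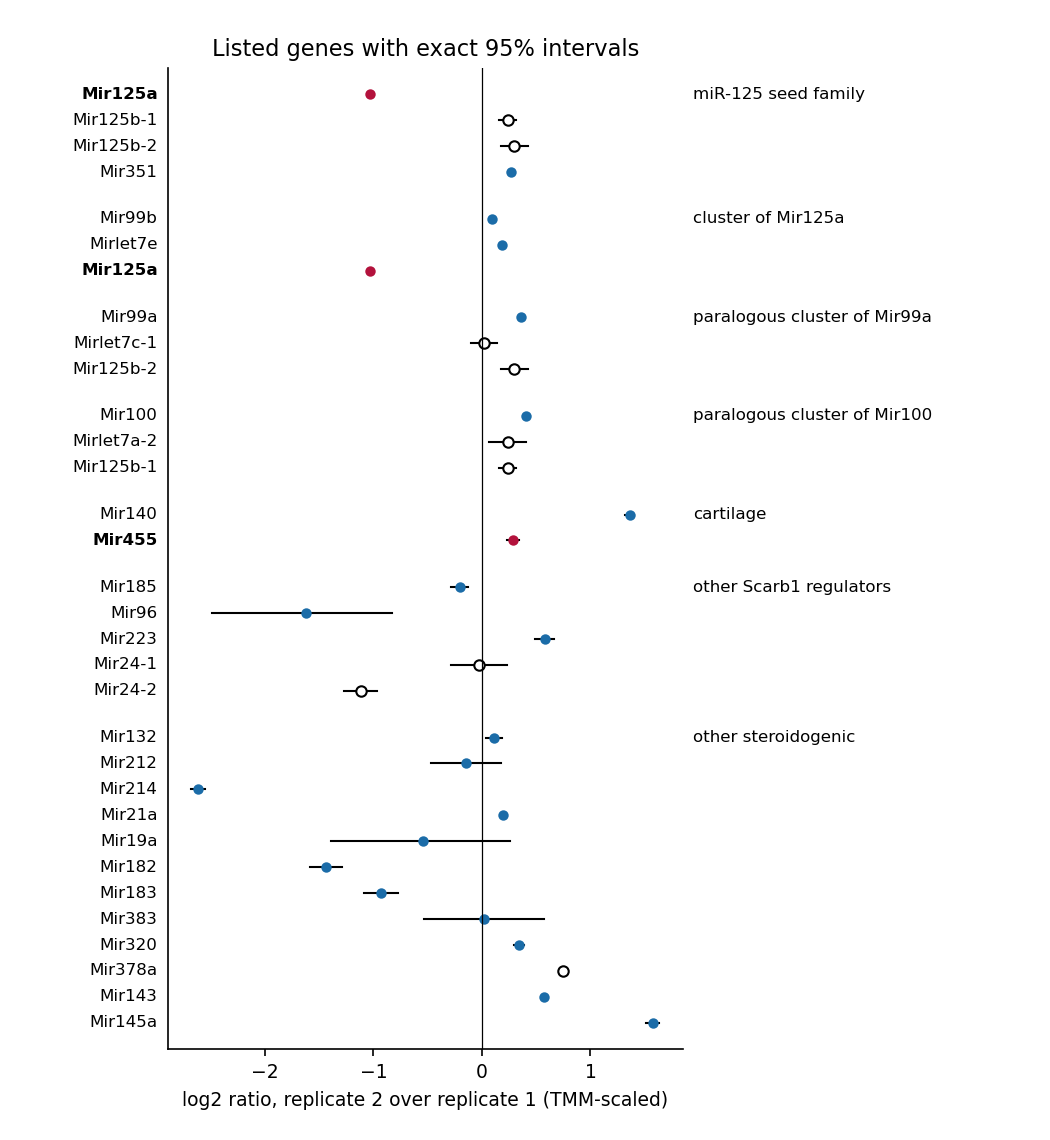
Log2 ratio of replicate 2 over replicate 1 (TMM-scaled reads) with exact 95% intervals for the listed genes, grouped by list. Filled points are genes without shared hairpin runs, open points genes with them, and the 2 genes described here are in red. Mir125a, at -1.03, lies left of every other gene of its seed family and its cluster, and Mir455, at 0.29, lies left of Mir140 at 1.36.

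Total miRNA reads were 4960537 in replicate 1 and 4506482 in replicate 2, so precision is not limited by depth for these genes. Markers of several cell types differed between the libraries as well. Endothelial markers (2 of 2 detected) summed to 171026 and 74690 CPM, mostly Mir126a, whereas Mir139 of this list was called higher in replicate 2 (14194 and 19981 CPM). Epithelial markers (5 of 5) summed to 4224 and 192 CPM, erythroid markers (3 of 3) to 1059 and 287 CPM, and kidney markers (3 of 3) to 375 and 145 CPM. Like Mir125a, these sums were higher in replicate 1, though the erythroid Mir486 was called higher in replicate 2 (20.4 and 27.7 CPM). Striated muscle markers (3 of 3) summed to 1247 and 8679 CPM, smooth muscle and mesenchymal markers (3 of 4, Mir199a-1 with 8 and 0 reads) to 30154 and 37479 CPM, leukocyte markers (3 of 3) to 1151 and 1475 CPM, the single liver marker Mir122 to 1449 and 2638 CPM and neuroendocrine markers (2 of 2) to 39741 and 45238 CPM, and these sums were higher in replicate 2. Within the smooth muscle and mesenchymal list, Mir143 held most of the reads, and Mir214 was called higher in replicate 1 (3641 and 542 CPM). The part of these markers in the difference of Mir125a was not tested. No miRNA defines cortical cells as such in these lists, and the neuroendocrine marker Mir375 was present at 36380 and 41025 CPM.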

How the data were processed

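The authors deposited whole-number read counts per miRNA gene for each library, without normalization. Assembly mm10 and annotation GENCODE M21 are given per the file headers of the deposited descriptions. Aligner and counting tool were not given in the sources used here. Of the 3 count columns the one for the annotated strand was used. That assignment was read from the values, as the tables have no header. The 4 leading rows name no gene and were left out: 25.8% and 26.1% of reads were unmapped, 25.9% and 27.8% mapped to several places, and 5.96% and 6.24% fell in no miRNA gene.

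CPM was computed over uniquely placed reads assigned to miRNA genes. Library ratios used TMM factors over all genes (edgeR 4.0.16; 1.05 and 0.956), an exact two-sided binomial test and Benjamini-Hochberg adjustment over the 377 genes with at least 10 reads in both libraries, with calls under 0.05. A quasi-likelihood fit between 2 single libraries has no residual degrees of freedom. The test was tested on simulated data that held counting error alone. That simulation does not bear on spread between libraries beyond counting error. Wilson and exact intervals are at 95%, and reads carry no molecular identifiers and PCR copies are not independent, which leaves counting error as the only error that intervals and floors cover. A p-value compares these 2 libraries alone. DESeq2 1.42.0 gave alternative size factors. 3′ UTRs came from GENCODE M21 transcripts, 1 longest per gene, and RefSeq's table held mature strands for 44 of 51 listed genes.

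Members, lists and tests were chosen with earlier results of these data known. Named were both genes, every listed gene, and the 3 nearest genes by level without shared hairpin runs. Some genes planned for the search of seed matches are not reported here.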

Additional observations from a re-analysis of the deposited data

Results flagged for a closer look

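Reads on the opposite strand are outside the measurement used above. Of the genes named, Mir24-1 had 104 of them in replicate 1 and 110 in replicate 2, and Mir126a had 20 and 6, above the 3 counts that a count of 0 allows. Mir486 had 3 and 11, above that limit in replicate 2 alone. Mir24-1 overlaps the annotated gene Mir3074-1 on the other strand, as Mir126a does Mir126b and Mir486 does Mir3107.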

How the results depend on the processing

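The direction and the call of both library ratios were the same under total reads, DESeq2 size factors, reads on either strand, no minimum, a mean of at least 100 reads, removal of hairpins that share runs, and TMM factors over detected genes alone (added after seeing the data). There the log2 ratio ran from -1.16 to -1.03 for Mir125a and from 0.15 to 0.29 for Mir455. The no-minimum and 100-read filters could not alter these ratios, because TMM factors were taken over all genes. Those filters bear on the adjustment of p alone. With edgeR's exact test the ratios of -1.03 and 0.29 had an adjusted p of 1, and 7 of 377 genes passed in place of 257 (24 at an unadjusted p under 0.05). Its dispersion is estimated from these 2 libraries and sets a wider error than counting. The mean level of Mir455 moved from 1057 CPM to 1255 with reads on either strand and to 1182 with a total without Mir126a. With a total without hairpins that share runs it was 1564 CPM. Each of these settings has a smaller denominator. With strand ignored, 1018277 reads in replicate 1 and 497237 in replicate 2 were ambiguous and not assigned to a gene. Mir126a kept 11 and 5 reads there, so that setting overlaps the one without Mir126a. The mean level of Mir125a moved from 8279.8 CPM to 10074 with reads on either strand and to 9492 with a total without Mir126a. With a total without hairpins that share runs it was 12032 CPM. Each shift was less than the SD of 4463 CPM. That SD is 53.9% of the mean, so it is a loose limit and does not show a steadier level than that of Mir455. Leaving out 1 library gave 5124 to 11436 CPM for Mir125a and 1000.5 to 1113.5 CPM for Mir455, and leaves no ratio. No paired analysis was possible because the series has a single group.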

Other observations

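The unequal difference within the cluster of Mir125a was set beside other neighbouring miRNA genes, after it had been seen. Over 81 pairs of neighbouring detected genes on 1 strand, with starts within 10000 bases and no shared hairpin runs, the median absolute difference in log2 ratio was 0.66. Mirlet7e and Mir125a differed by 1.21, and 14 of the 81 pairs, this one included, differed by that much or more. Mir93 and Mir106b, at 2.37, differed most among them. With at least 100 reads in every value, 12 of 65 pairs reached 1.21.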
